A study of Mus musculus with 24 samples.

Results

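The mitochondrial genome of the mouse carries 37 genes, and all of them have an entry in the deposited lung expression table of 78298 genes. They were taken by name, as every gene whose symbol begins with mt-. They comprise 13 messenger RNAs, 2 ribosomal RNAs (mt-Rnr1 and mt-Rnr2) and 22 transfer RNAs. The 22 transfer RNAs, 59 to 75 bases long, were listed at 0 in all 24 libraries, so values and tests exist for 15 members, and each of these 15 reached a TPM of 1 in 4 libraries or more, the filter used for testing. TPM is transcript abundance corrected for transcript length and scaled so that all genes of a library sum to a fixed total.

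The study asked whether drinking water containing AEAA, a water extract of the plant Artemisia argyi (mugwort), alters acute lung injury caused by bacterial lipopolysaccharide (LPS). All mice were wild-type C57BL/6, 7 weeks old, and labelled male. Low-dose (0.5 mg/mL, n = 5), mid-dose (1 mg/mL, n = 5) and high-dose (1.5 mg/mL, n = 5) mice drank the extract for 28 days and then received LPS at 5 mg/kg into the trachea. LPS mice (n = 5) received the same LPS without extract, and control mice (n = 4) were given saline by the treatment protocol, while their sample labels list an LPS challenge as well. Lung tissue was collected 8 h later and sequenced in bulk, so fewer cells of a type and less RNA per cell cannot be told apart in any value below. Each library represents a separate mouse by its label, and p-values measure the spread between these samples.

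Depth is unknown because the files give no counts, and 14996 to 16954 genes reached a TPM of 1 per library. Xist, the RNA of the inactive X chromosome, stood at 25.8 to 95.5 TPM in every library, while the Y-linked Ddx3y did not exceed 0.02 TPM, which goes against the male label. The lung identity of the samples was visible in Sftpc, the surfactant gene of type II alveolar cells, at 5464 to 40453 TPM. Scgb1a1, the abundant club cell secretoglobin, made up 6.67 ± 1.57% of all TPM in low-dose, 4.99 ± 1.49% in mid-dose, 6.64 ± 2.31% in high-dose, 4.88 ± 1.20% in LPS and 28.3 ± 5.18% in control lungs (mean ± SD). Since TPM sums to a fixed total, the share left to every other gene moved with it. The median gene tested was 0.55 higher on the log2 scale in LPS than in control lungs, and still 0.22 higher with totals taken without Scgb1a1. Member values are therefore given both as deposited and after median-of-ratios scaling, in which each library is divided by its median ratio to the mean library. Scaling brought the median of LPS against control lungs to 0.02. For high dose against LPS the median was -0.27 as deposited, -0.25 without Scgb1a1 and -0.002 scaled.

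Mitochondrial DNA is a small circle transcribed from both strands into long RNAs that are cut, mostly at the transfer RNAs, into individual transcripts. The heavy-strand promoter gives the ribosomal RNAs and all messenger RNAs but mt-Nd6, which with 8 transfer RNAs comes from the light strand. The proteins encoded are core subunits of the respiratory chain, namely mt-Nd1 to mt-Nd6 and mt-Nd4l of complex I, mt-Cytb of complex III, mt-Co1 to mt-Co3 of complex IV, and mt-Atp6 and mt-Atp8 of ATP synthase. Every other subunit is encoded in the nucleus. In lung, alveolar type II and ciliated cells are rich in mitochondria, whereas neutrophils have few.

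A block of former mitochondrial DNA inserted in chromosome 1 carries near-identical annotated copies of 7 of these genes, in full or in part. On GRCm38, the build of all coordinates given here, in the GENCODE M21 annotation, the copies lie on the minus strand of chr1:24611535-24616197 and are annotated as unprocessed pseudogenes. Full copies exist of mt-Co2 (Gm28661, 681 bases), mt-Atp6 (Atp6-ps, 678 bases), mt-Co3 (Gm28437, 783 bases) and mt-Nd4l (Gm10222, 294 bases), all with 0 mismatches. The copy of mt-Nd3 (Gm28438, 345 bases) has 1 mismatch, and partial copies exist of mt-Co1 (Gm29216, 1 mismatch over 483 bases) and mt-Nd4 (Gm28439, 0 mismatches over 876 bases). The 8 other members tested have no copy among annotated transcripts that meets 99% identity over 100 bases. Sequence outside annotated transcripts was not searched. mt-Atp8 lies between mt-Co2 and mt-Atp6, which are both copied. Atp6-ps holds the 43 bases that mt-Atp8 shares with mt-Atp6, so the block carries at least the end of mt-Atp8. Atp6-ps ends at 24614651 and Gm28661 starts at 24614885, while mt-Co2 ends at MT:7696 and mt-Atp6 starts at MT:7927. The sequence between these copies was not read, so mt-Atp8 is not known to be free of a copy. The opening bases of mt-Co2 and Gm28661 are shown because both transcripts read the same there:
mt-Co2: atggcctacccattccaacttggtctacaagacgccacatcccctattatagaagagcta
Gm28661: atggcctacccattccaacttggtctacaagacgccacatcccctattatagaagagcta

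Within the aligned stretches, copies differ from their genes at 2 positions, shown here because only these bases separate the transcripts. Counted from 1 at the 5′ end of the mitochondrial transcript, they are T3C between mt-Nd3 and Gm28438, at the last base of the annotated start codon, and A1066T between mt-Co1 and Gm29216. The differing base is in capitals:
mt-Nd3: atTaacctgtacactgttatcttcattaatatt
Gm28438: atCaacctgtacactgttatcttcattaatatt
mt-Co1: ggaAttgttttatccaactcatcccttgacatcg
Gm29216: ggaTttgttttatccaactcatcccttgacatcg

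Members also overlap each other. mt-Atp8 and mt-Atp6 are read from 1 RNA and share 43 bases (MT:7927-7969), given in capitals at the end of mt-Atp8. Reads within those bases belong to both genes, and the same holds for 7 bases of mt-Nd4l and mt-Nd4. mt-Nd5 and mt-Nd6 overlap by 14 bases on opposite strands, and whether counting used strand is not given in the sources used here.
mt-Atp8: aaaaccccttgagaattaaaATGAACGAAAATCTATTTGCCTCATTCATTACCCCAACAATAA

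In the deposited table the 5 full copies took most of the signal of their genes. The partial copies were uneven, with Gm28439 at 0 in all libraries but LPS replicate 2, and Gm29216 at 6.32 to 2181 TPM in LPS lungs and 9.26 to 28.3 TPM in control lungs. Gm28661 stood at 6973 to 16272 TPM, against 176 to 492 TPM for mt-Co2. Of the TPM of each gene and its copy, the part listed under the mitochondrial gene in LPS and control lungs was 3.25 ± 1.58% and 2.43 ± 0.544% for mt-Co2, and 5.39 ± 1.48% and 4.53 ± 0.68% for mt-Co3 (n = 5 and 4). Both ranges overlapped. It was 10.9 ± 1.12% in LPS lungs (9.35 to 12.5%) and 14.3 ± 1.58% in control lungs (12.7 to 16.4%) for mt-Atp6, without overlap, and 11.9 ± 2.85% and 17.0 ± 2.9% for mt-Nd3, with overlap. For mt-Nd4l it was 16.6 ± 1.65% in LPS lungs (13.8 to 18.01%) and 23.5 ± 3.35% in control lungs (20.5 to 26.9%), so these groups did not overlap either. High-dose (19.6 to 22.7%) and mid-dose lungs (18.04 to 21.65%) were above all LPS lungs, and low-dose lungs (17.76 to 24.83%) overlapped them. The division itself moved between groups for mt-Atp6 and mt-Nd4l, and values of the 5 pairs are given below also with gene and copy added together.

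**Figure D1:**
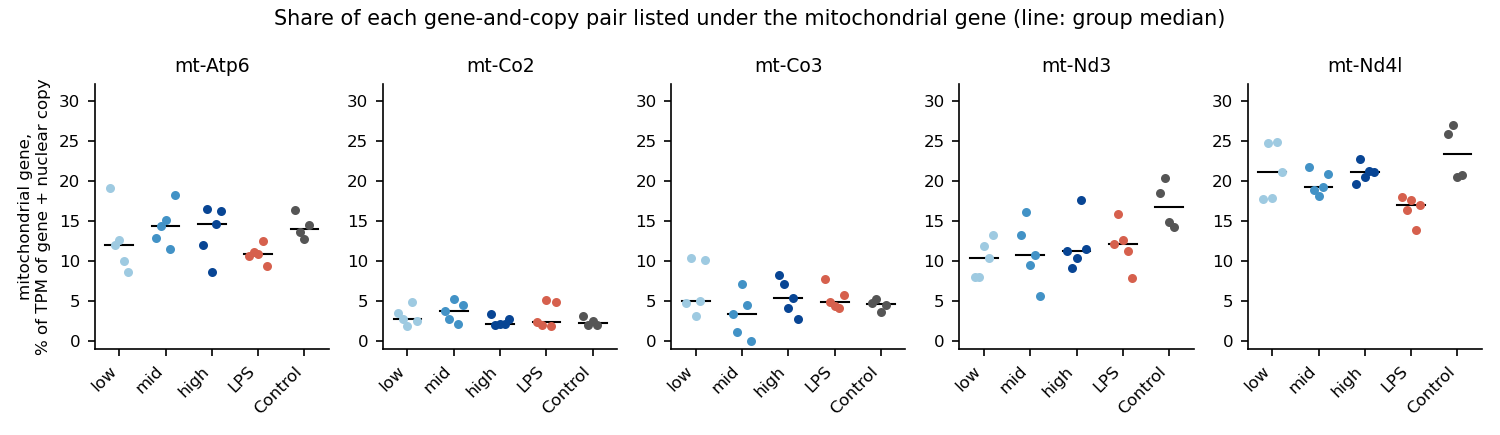
Share of the summed TPM of a mitochondrial gene and its chromosome 1 copy that is listed under the mitochondrial gene (y axis, percent), for 5 pairs; each point is 1 library, grouped by treatment, and lines mark group medians. For mt-Nd4l the LPS libraries (13.8 to 18.0%) lie below the control libraries (20.5 to 26.9%).

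Within groups, messenger RNAs with a full copy followed the rest of the genome less closely than those without an annotated one. Each member's log2 deviations from its group means were correlated with those of the mean of 5 messenger RNAs. These were mt-Nd1, mt-Nd2, mt-Nd5, mt-Nd6 and mt-Cytb, which are free of annotated copies. The correlations are a description, over 24 libraries in which all members share depth and composition. Pearson's r was 0.994 for mt-Nd4, 0.904 for mt-Co1 and 0.833 for mt-Atp8, but 0.741 for mt-Atp6, 0.732 for mt-Nd4l, 0.69 for mt-Nd3, 0.307 for mt-Co3 and 0.056 for mt-Co2. The copy followed the genome more closely than the gene itself in each of the 5 pairs, with 0.954 for Gm28661 and 0.911 for Gm28437. The summed pairs reached 0.953 for mt-Co2, 0.951 for mt-Atp6, 0.913 for mt-Co3, 0.869 for mt-Nd4l and 0.783 for mt-Nd3. Of the ribosomal RNAs, left after the ribosomal depletion named in the protocol, mt-Rnr2 reached 0.725 and mt-Rnr1 0.389.

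Together the members made up 4.03 to 8.36% of all TPM. The most abundant as listed was mt-Atp8, at 22431 ± 3276 TPM in LPS and 23155 ± 4382 TPM in control lungs. Next came mt-Co1, at 11281 ± 3406 TPM and 12550.5 ± 553 TPM. With Gm28661 added, mt-Co2 stood at 10473.7 ± 2322.5 TPM in LPS and 14138.4 ± 1169.5 TPM in control lungs, above mt-Co1 in control lungs only. The 2 ribosomal RNAs amounted to 0.0790% of TPM in LPS and 0.0990% in control lungs. Over all members the mean share was 5.45 ± 0.72% in low-dose, 5.25 ± 0.758% in mid-dose, 6.19 ± 1.72% in high-dose, 5.77 ± 1.36% in LPS and 6.76 ± 0.947% in control lungs. Ordered by level these were control, high-dose, LPS, low-dose and mid-dose lungs, and no neighbours in that order differed by more than their SD.

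**Figure D2:**
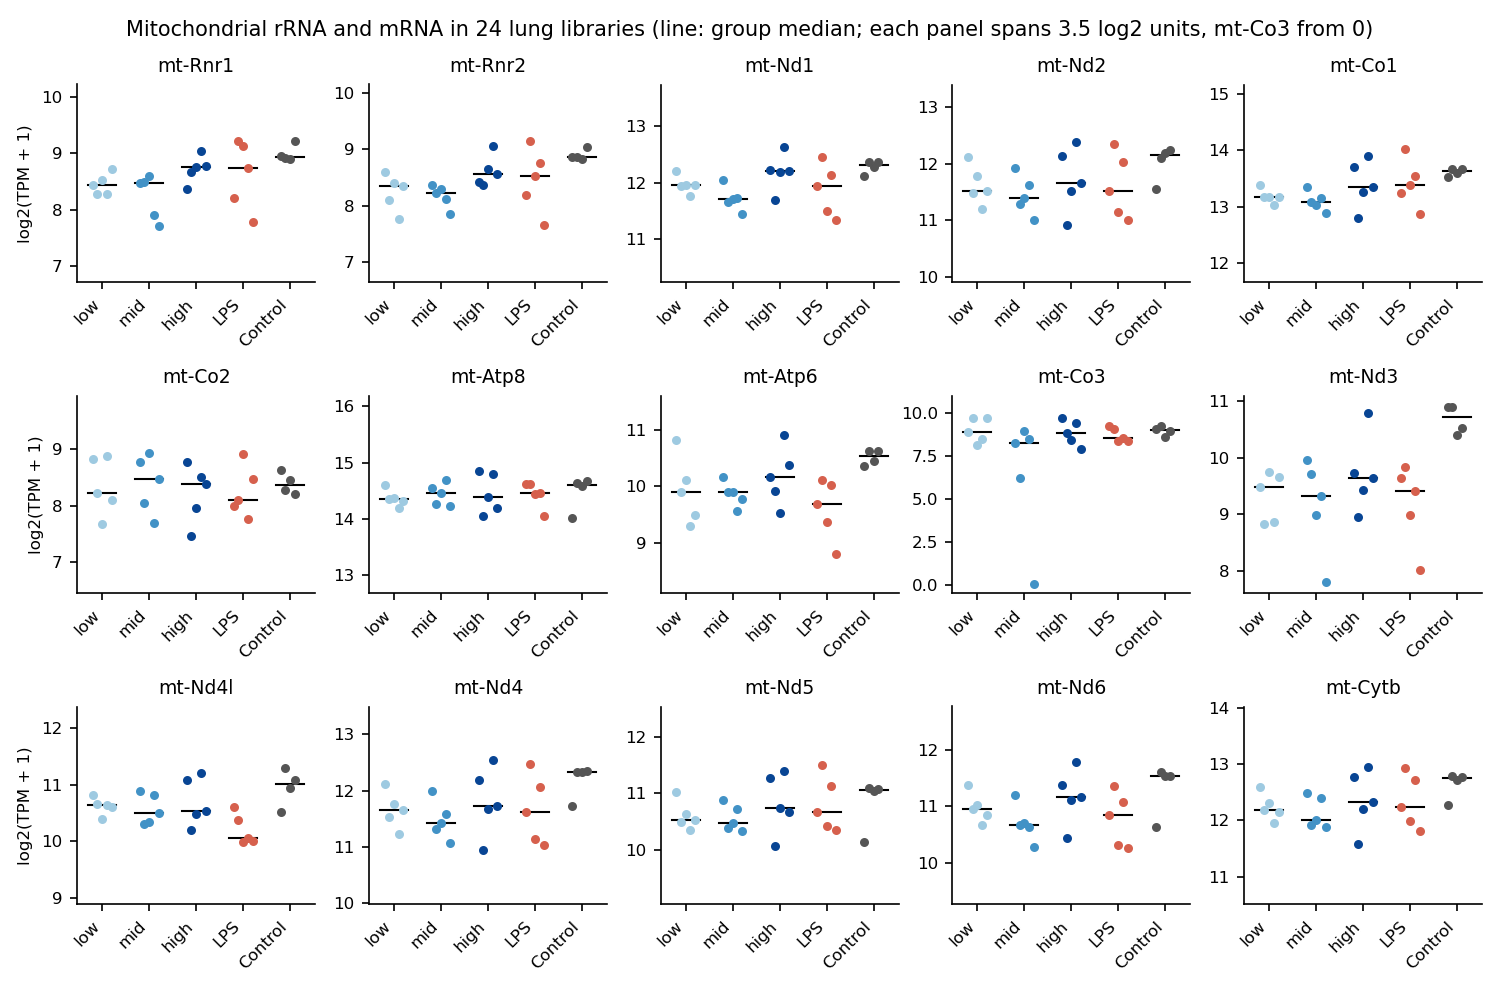
Level of each of the 15 measured mitochondrial transcripts as log2(TPM + 1) (y axis) in the 24 libraries by group; points are libraries and lines are group medians. Each panel spans the same log2 range, except that of mt-Co3, which starts at 0. In mt-Nd3 and mt-Atp6 all LPS libraries lie below all control libraries.

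LPS against saline asks what the challenge did to mitochondrial transcripts. Of the 15 members, mt-Nd3, mt-Atp6 and mt-Nd4l fell in LPS lungs on the deposited scale and 0 rose, by limma with Benjamini-Hochberg adjustment over 17823 genes at an adjusted p of 0.05. The background was 1.86% of all genes tested lower and 56.2% higher. All 15 fold changes were negative, with a median log2 value of -0.41, against 0.55 for all genes, and 5 members had an unadjusted p under 0.05. Once scaled, 13 of 15 members fell, with a median of -1.06, against a background of 13.7% of genes lower and 14.2% higher. The scaled libraries of LPS and control lungs were then apart for 12 of 15 members, all but mt-Co2, mt-Co3 and mt-Nd5, as for 13.1% of genes.

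mt-Nd3 encodes a small membrane subunit of complex I (ENSMUSG00000064360, MT:9459-9806). Its TPM was 801, 914, 505, 685 and 257 in LPS lungs, against 1924, 1916, 1358 and 1476 in control lungs. Every LPS library was below every control library, as for 1.48% of genes tested. The log2 fold change was -1.51 ± 0.41 (SE; 0.352-fold), with an adjusted p of 0.00315 by limma. With Gm28438 added, the pair stood at 6616, 5784, 4008, 6108 and 3269.6 TPM in LPS lungs and 10408, 9404, 9107 and 10328 TPM in control lungs, again without overlap. The log2 fold change of the pair was -0.98 ± 0.22 (0.508-fold, adjusted p = 0.000669 by limma), and -1.63 ± 0.22 after scaling (0.323-fold, adjusted p = 4.75e-05).

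mt-Atp6 encodes the proton channel subunit a of ATP synthase (ENSMUSG00000064357, MT:7927-8607). It stood at 821, 1104, 659, 1035 and 444 TPM in LPS lungs and at 1313, 1568, 1385 and 1572 TPM in control lungs, the only other member whose groups did not overlap. The log2 fold change was -0.91 ± 0.29 (0.531-fold, adjusted p = 0.00929 by limma). With Atp6-ps added it was -0.52 ± 0.22 (0.695-fold, adjusted p = 0.0427), and the pair's libraries overlapped. mt-Atp8, read from the same RNA, showed 25075, 25129.7, 22202, 22658 and 17088 TPM in LPS lungs against 16645, 25421, 24537 and 26018 TPM in control lungs. The groups overlapped, and the log2 difference was -0.04 ± 0.17 (adjusted p = 0.866 by limma).

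mt-Nd4l, a further membrane subunit of complex I (ENSMUSG00000065947, MT:9877-10173), stood at 1562, 1337, 1009, 1062 and 1028 TPM in LPS lungs against 1475, 2513, 1966 and 2167 TPM in control lungs. Control replicate 1 lay within the LPS range and the other 3 above it. The log2 fold change was -0.75 ± 0.20 (0.593-fold, adjusted p = 0.00232 by limma). The call was lost once Gm10222 was added, at -0.26 ± 0.22 (0.837-fold, adjusted p = 0.323), and returned with scaling of the pair, at -0.91 ± 0.18 (adjusted p = 0.00108).

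For the 2 other pairs the fall passed on the deposited scale with the copy added and not without it. mt-Co2, the copper-binding subunit of complex IV, listed 255, 274, 481, 218 and 354 TPM in LPS lungs and 397, 309.9, 352 and 297 TPM in control lungs, with overlapping groups (log2 -0.15 ± 0.29, adjusted p = 0.694 by limma). mt-Co3, the third core subunit, was listed at 604, 519, 322, 369.6 and 328 TPM in LPS lungs and at 529, 592, 383 and 498 TPM in control lungs (-0.25 ± 1.13). As sums with their copies both were lower in LPS lungs and passed, mt-Co2 at -0.46 ± 0.17 (0.728-fold, adjusted p = 0.0225) and mt-Co3 at -0.48 ± 0.17 (0.718-fold, adjusted p = 0.0218). With copies added, 4 of 15 members passed as lower, against a background of 1.85%, and after scaling too all 15 did, against 13.7%.

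Among members with no annotated copy, none passed on the deposited scale. mt-Nd1, the membrane arm subunit of complex I next to its quinone site, stood at 3946, 5591, 2884, 4508 and 2601 TPM in LPS lungs against 4465, 5262, 4961 and 5260.4 TPM in control lungs (-0.41 ± 0.19, adjusted p = 0.0697 by limma). LPS replicate 2 was the highest of all these and the groups overlapped. mt-Nd6, of the light strand, showed -0.56 ± 0.26 (adjusted p = 0.0757), mt-Rnr2 -0.44 ± 0.22 (0.0847), mt-Cytb -0.30 ± 0.24 (0.301) and mt-Nd5 -0.02 ± 0.26 (0.963). After scaling these fell by 1.06 (mt-Nd1), 1.21 (mt-Nd6), 1.10 (mt-Rnr2), 0.96 (mt-Cytb) and 0.67 (mt-Nd5) on the log2 scale, with adjusted p from 0.000253 to 0.0254. Without LPS replicate 2, 7 members passed on the deposited scale in place of 3, the added ones being mt-Nd1, mt-Nd4, mt-Nd6 and mt-Rnr2. The share of all genes called in that fit is not at hand, so this count has no background.

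**Figure D3:**
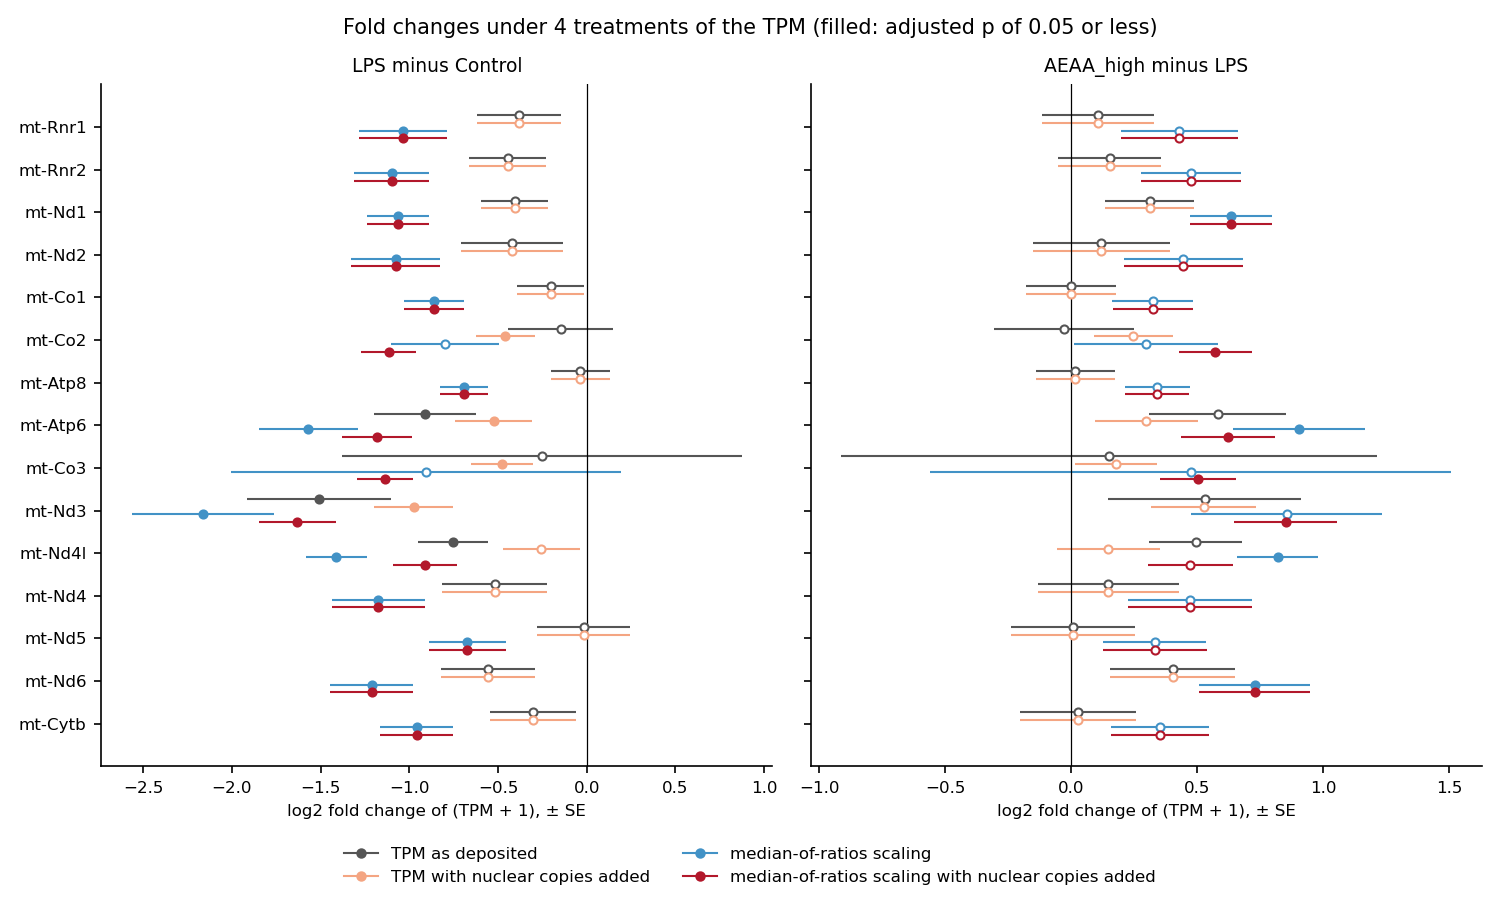
Log2 fold changes of the 15 members (x axis, ± SE) for LPS minus control and for high dose minus LPS, in 4 fits: TPM as deposited, with nuclear copies added, scaled, and scaled with copies added; filled points have an adjusted p of 0.05 or less in limma. Against control, 3, 4, 13 and 15 members pass as lower in these fits; for high dose against LPS, 0, 0, 4 and 6 pass as higher.

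A measure free of Scgb1a1 also placed LPS lungs below control lungs. Members and copies made up 10.2, 12.9, 8.67, 10.5 and 6.97% of the TPM left without Scgb1a1 in LPS lungs, against 14.8, 16.0, 16.4 and 17.1% in control lungs. The groups did not overlap. As a share of all TPM the same sum was 9.37 ± 2.08% in LPS and 11.6 ± 1.36% in control lungs, whose ranges of 6.64 to 12.2% and 9.57 to 12.5% overlapped.

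Among the challenged groups the study asks whether the extract moved lungs away from LPS alone. On the deposited scale 0 of 15 members rose or fell at any dose by limma. The background for high dose against LPS was 2.05% of genes higher and 25.5% lower, for low dose 1.23% and 9.38%, and for mid dose 0% in both directions. An unadjusted p under 0.05 was reached by 1 member in low-dose, 1 in mid-dose and 2 in high-dose lungs. An F-test of any dose against LPS called 0 members, 0 of them with an unadjusted p under 0.05, against a background of 22.2%.

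After scaling, mt-Nd4l, mt-Nd1, mt-Atp6 and mt-Nd6 rose in high-dose lungs, 4 of 15 against a background of 5.66% higher and 3.07% lower. The F-test of any dose then called mt-Nd1 and mt-Nd4l, against a background of 7.07%. mt-Nd4l stood at 2163, 1169, 1428, 2379 and 1486 TPM in high-dose lungs, against 1562, 1337, 1009, 1062 and 1028 TPM in LPS lungs. The highest 2 values were those of high-dose replicates 1 and 4, and the groups overlapped. Its scaled log2 fold change was 0.82 ± 0.16 (1.76-fold, adjusted p = 0.0041 by limma), against 0.49 ± 0.19 as deposited (adjusted p = 0.0509). With Gm10222 added it was 0.15 ± 0.20 as deposited and 0.47 ± 0.17 scaled, and neither passed (adjusted p = 0.624 and 0.086). Over all alternatives its adjusted p ran from 0.0041 to 0.624.

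mt-Nd1 stood at 4759, 3316, 4646, 6335 and 4719 TPM in high-dose lungs, and its scaled log2 fold change over LPS was 0.64 ± 0.16 (1.55-fold, adjusted p = 0.0187 by limma). mt-Atp6 and mt-Nd6 followed with 0.91 ± 0.26 (adjusted p = 0.0335) and 0.73 ± 0.22 (adjusted p = 0.0415). mt-Nd5, mt-Co1 and mt-Atp8 showed 0.01, -0.00 and 0.02 on the deposited scale, without passing in any fit plotted. With copies added and scaling, the pairs of mt-Nd3 (0.85 ± 0.20, adjusted p = 0.0131), mt-Co2 (0.57 ± 0.15, 0.0176), mt-Co3 (0.50 ± 0.15, 0.0386) and mt-Atp6 (0.62 ± 0.19, 0.0407) rose, and mt-Nd4l did not pass. In that fit 6 members passed, against a background of 5.65%.

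Low dose against LPS gave 1 scaled call of 15, against a background of 1.62% higher and 0.488% lower: mt-Nd4l, at 1807, 1621, 1348, 1602 and 1554 TPM in low-dose lungs, rose by 0.65 ± 0.16 (1.57-fold, adjusted p = 0.0408 by limma). With copies added and scaling 0 members passed for low dose, 3 of them with an unadjusted p under 0.05, against a background of 1.61% higher, and mt-Nd4l stood at 0.30 (adjusted p = 0.405). In mid-dose lungs no member passed as deposited or scaled, and every adjusted p was 1. mt-Co3 read 297, 71.6, 490.0, 349.9 and 0.02 TPM there, the lowest value of the 15 members, while Gm28437 brought the pair to 8671, 6632, 6906, 7680.5 and 5607 TPM. High dose against low dose called 0 members, 0 with an unadjusted p under 0.05, against a background of 0% higher and 0.00561% lower. After scaling it again called 0, with 1 unadjusted p under 0.05, against 0.0168% higher and 0.00561% lower. The comparisons of the 3 doses share the LPS libraries. For 0 members taken without copies were all high-dose libraries above all LPS libraries, which held for 0.516% of genes as deposited and 2.32% scaled. With its copy and scaling, mt-Nd3 was the exception, at 6203 to 10505 TPM in high-dose and 2821 to 6115 TPM in LPS lungs.

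Ratios between members do not depend on library scaling. mt-Nd5, the neighbour of mt-Nd6 on the other strand with 14 shared bases, was chosen for a ratio after its values were seen. mt-Nd5 stood at 88.8, 111, 108, 104 and 107% of mt-Nd6 in LPS lungs, against 71.1, 70.7, 70.7 and 72.4% in control lungs, so every LPS library was above every control library. In low-dose lungs the ratio was 72.7 to 81.1%, below every LPS library. High-dose lungs, at 92.4, 77.9, 76.9, 76.7 and 70.7%, had 1 library within the LPS range, and mid-dose lungs, at 80.5, 82.9, 85.2, 105 and 104%, had 2. Neither gene has an annotated nuclear copy, and no test was run on the ratio.

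The light strand's share was less distinct. mt-Nd6 amounted to 3.33, 3.57, 2.62, 3.6 and 3.16% of the 12 heavy-strand messenger RNAs in LPS lungs and to 3.09, 4.48, 4.51 and 4.27% in control lungs. Control replicate 1 fell within the LPS range. Low-dose lungs, at 3.66 to 4.21%, lay above all LPS lungs. With the nuclear copies counted among the heavy-strand messenger RNAs the ranges overlapped, at 2.13 to 2.43% in low-dose and 1.63 to 2.23% in LPS lungs. Against mt-Cytb alone, mt-Nd6 was 40.4 to 43.0% in low-dose and 31.4 to 38.1% in LPS lungs, without overlap. Control lungs, at 31.7 to 44.2%, overlapped both. The ribosomal RNAs reached 1.02 to 1.86% of the messenger RNAs in LPS lungs and 1.31 to 1.82% in control lungs, the control range lying within the LPS range.

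Of 14 ratios computed among members, 5 kept LPS and control libraries apart and 9 overlapped. They include ratios picked after values were seen, so those that separate the groups are a description. mt-Nd3 with its copy was 168, 103, 139, 135 and 126% of mt-Nd1 in LPS lungs and 233, 179, 184 and 196% in control lungs. mt-Atp6 with its copy was 30.7, 39.7, 27.4, 36.5 and 27.8% of mt-Atp8 in LPS lungs against 48.2, 45.5, 44.5 and 41.8% in control lungs. In both, all LPS libraries lay below all control libraries. The same mt-Nd3 pair overlapped when set against mt-Cytb, at 73.8 to 137% in LPS and 133 to 209% in control lungs, and so did mt-Nd5 over mt-Nd1, at 41.4 to 51.95% and 25.1 to 42.4%. mt-Nd4l with its copy over mt-Nd4, mt-Co1 over mt-Nd1 and mt-Rnr1 over mt-Rnr2 overlapped as well.

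**Figure D4:**
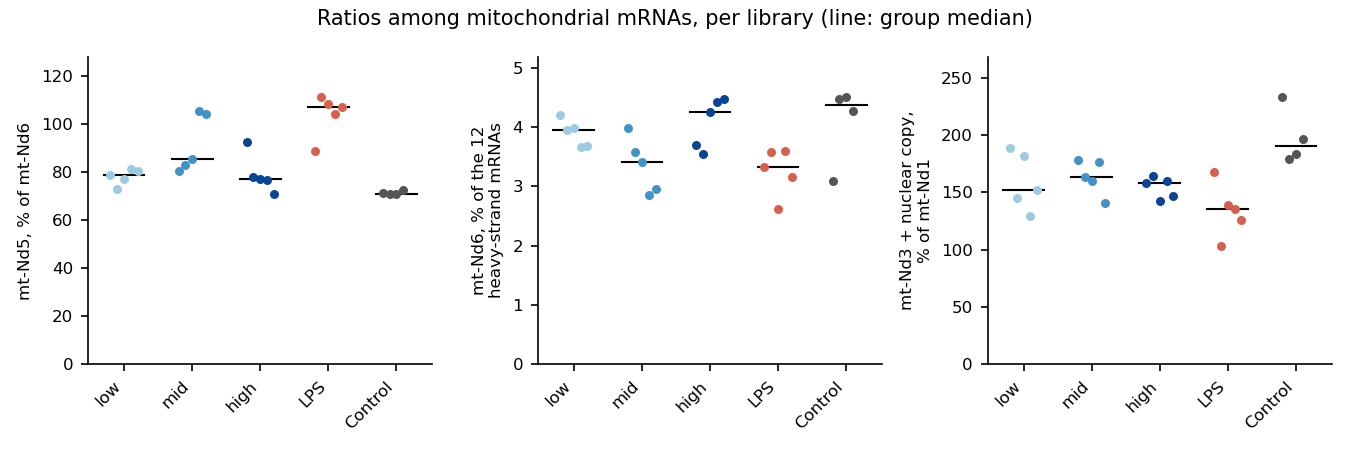
Ratios between mitochondrial transcripts in each library (y axes, percent) by group: mt-Nd5 over mt-Nd6, mt-Nd6 over the 12 heavy-strand messenger RNAs, and mt-Nd3 with its copy over mt-Nd1. In the first panel LPS libraries (88.8 to 111%) lie above control libraries (70.7 to 72.4%), and low-dose libraries (72.7 to 81.1%) below the LPS ones.

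Nuclear subunits of the respiratory chain were called in both directions in LPS lungs as deposited, and mostly as lower after scaling. Of 36 nuclear subunits of complex I, 10 were higher and 5 lower in LPS than in control lungs as deposited, and 0 and 25 after scaling (median 0.08 and -0.58). Over all genes tested, 56.2% were higher and 1.86% lower as deposited, and 14.2% and 13.7% scaled. Ndufa1, a membrane arm subunit, had 190.0 ± 46.2 TPM in LPS and 269 ± 5.22 TPM in control lungs, with a scaled log2 change of -1.18 ± 0.21 (adjusted p = 0.000506 by limma). Scaled falls were also counted for 5 of 9 subunits of complex III, 9 of 14 of complex IV and 10 of 18 of ATP synthase, against 0, 0 and 1 rise. Atp5f1b, the catalytic beta subunit of ATP synthase, was at 871 ± 168 TPM in LPS and 318 ± 13.6 TPM in control lungs, a log2 change as deposited of 1.43 ± 0.16 (adjusted p = 2.37e-07).

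In high-dose against LPS lungs, 21 of 36 complex I subunits rose as deposited and 28 after scaling, 0 falling in either, where 2.05% of all genes were higher as deposited and 5.66% scaled. Complex III had 5 of 9 rising as deposited, complex IV 7 of 14, and ATP synthase 8 of 18 with 2 falling. Cox6c, a small subunit of complex IV, was at 675.6 ± 134 TPM in high-dose and 409 ± 81.4 TPM in LPS lungs (log2 0.72 ± 0.13, adjusted p = 0.0018 by limma). Low-dose lungs had 17 of 36 complex I subunits higher and 1 lower than LPS lungs as deposited, beside 1.23% and 9.38% of all genes. Whether nuclear and mitochondrial subunits differed in their response was not tested.

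Factors that make or process mitochondrial RNA were called as higher in LPS than in control lungs as deposited, and fewer of them after scaling. Of 19 transcription, replication and nucleoid factors 11 rose and 0 fell, a share near the 56.2% of all genes that rose, and after scaling 2 rose and 5 fell, with medians of 0.39 and -0.16. Lonp1, the matrix protease that degrades the nucleoid protein TFAM, was at 39.7 ± 6.38 TPM in LPS and 18.0 ± 2.18 TPM in control lungs (1.10 ± 0.19 as deposited, adjusted p = 3.77e-05 by limma, and 0.46 ± 0.14 scaled, 0.0172). Of 36 RNA processing factors 30 rose and 0 fell as deposited, and 5 rose and 4 fell scaled, near the 14.2% and 13.7% of all genes. Tbrg4, a FASTK family RNA-binding protein, rose in both fits, by 1.47 ± 0.19 and 0.86 ± 0.20 (adjusted p = 1.11e-06 and 0.00416). Slirp, whose complex with LRPPRC stabilises mitochondrial messenger RNAs, fell by 0.88 ± 0.22 after scaling (adjusted p = 0.00583) and was at 10.85 ± 1.87 TPM in LPS and 13.2 ± 1.33 TPM in control lungs.

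In high-dose lungs Slirp was at 14.8 ± 4.71 TPM, against 10.85 ± 1.87 TPM in LPS lungs, with a scaled rise of 0.67 ± 0.21 (adjusted p = 0.0483 by limma). Ssbp1, the single-stranded DNA-binding protein of mitochondrial replication, also rose after scaling (0.56 ± 0.12, adjusted p = 0.00609). It was the single one of the 19 transcription and replication factors to do so, and 3 of the 36 processing factors rose. As deposited, 1 of the 19 rose and 3 fell, and 0 of the 36 rose and 11 fell. Of all genes tested for high dose against LPS, 2.05% rose and 25.5% fell as deposited. After scaling 5.66% rose and 3.07% fell, so the counts of both lists are near the background. Of 13 regulators of mitochondrial biogenesis, 8 were higher in LPS than in control lungs as deposited, again near the share of all genes, and 2 were higher and 3 lower when scaled. Pprc1, a coactivator of the PGC-1 family, rose in both fits (1.77 ± 0.27, adjusted p = 1.03e-05, and 1.21 ± 0.28, 0.0034).

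Of 18 nuclear genes used as measures of mitochondrial content, 16 were higher and 0 lower in LPS than in control lungs as deposited, and 2 and 0 when scaled, with medians of 0.81 and 0.18. Of all genes, 56.2% rose as deposited and 14.2% scaled, so the scaled count is near the background. Hspa9, the matrix chaperone mortalin, was at 127.5 ± 21.8 TPM in LPS and 59.2 ± 4.25 TPM in control lungs (1.08 ± 0.14 as deposited and 0.43 ± 0.12 scaled, adjusted p = 1.28e-06 and 0.0107 by limma). In the same lungs the members' own medians were -0.41 and -1.06.

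Transcripts that mark other cell types moved alongside these values. The summed TPM of 14 neutrophil markers, none of them at 0 in every library and led by Lcn2, was 937 to 19453 in LPS lungs and 253 to 348 in control lungs. Lcn2 alone stood at 251 to 12250.5 TPM in LPS and 95.5 to 140.5 TPM in control lungs. The sum thus leans heavily on 1 gene and is no count of neutrophils. This sum was also uneven within groups. LPS replicates 2 and 4, with the lowest sums of 2368 and 937, had members and copies at 12.2 and 10.2% of TPM, while the other LPS libraries, with 12473, 19453 and 14601, had 9.58, 8.27 and 6.64%. High-dose replicates 1 and 4, at 842 and 623, had 12.1 and 14.0%, and the other high-dose libraries, at 25451, 24286 and 16029, had 7.07, 9.39 and 9.39%. This pattern was seen after looking at the values, and its part in the differences between groups was not tested. Of TPM without Scgb1a1, LPS replicates 2 and 4 had 12.9 and 10.5%, against 14.8 to 17.1% in control lungs, which had the lowest marker sums.

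Markers of alveolar, ciliated and muscle cells were uneven. The 12 alveolar epithelial markers join type I with type II cells, so they do not stand for type II cells alone. Their sum, led by Sftpc, ran from 21493 to 43533 TPM in LPS and from 36258 to 50444 TPM in control lungs. Of the 12, 5 rose and 0 fell as deposited, and 1 rose and 2 fell scaled. Of all genes tested, 56.2% rose and 1.86% fell as deposited, and 14.2% and 13.7% scaled. Alveolar rises were thus no more frequent than those of all genes. The sum of 10 ciliated cell markers, led by Tppp3, was 498 to 1131 TPM in LPS and 987 to 1237 TPM in control lungs, with 0 rising and 1 falling as deposited and 0 and 6 scaled. Cardiac muscle, which sheathes the pulmonary veins of mice, gave a 12-marker sum led by Myl7 of 416 to 530 TPM in LPS and 726 to 1605 TPM in control lungs, without overlap. High-dose replicate 4, with the highest mt-Nd3 and mt-Nd1 of its group, had the highest cardiac sum, 2504 TPM. Mid-dose replicate 4, with the next highest, 2241 TPM, had less mt-Nd1 (3391 TPM) and mt-Nd3 (644 TPM) than mid-dose replicate 1 (4233 and 997 TPM), whose cardiac sum was 710.5 TPM. The sum of 12 skeletal muscle markers led by Acta1 was 5367, 51.5, 3278, 49.98 and 38.8 TPM in LPS lungs and 58.2 to 129 TPM in control lungs, so LPS replicates 1 and 3 were far above the control lungs and the other 3 below them. The part of these tissues in the mitochondrial values was not tested.

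**Figure D5:**
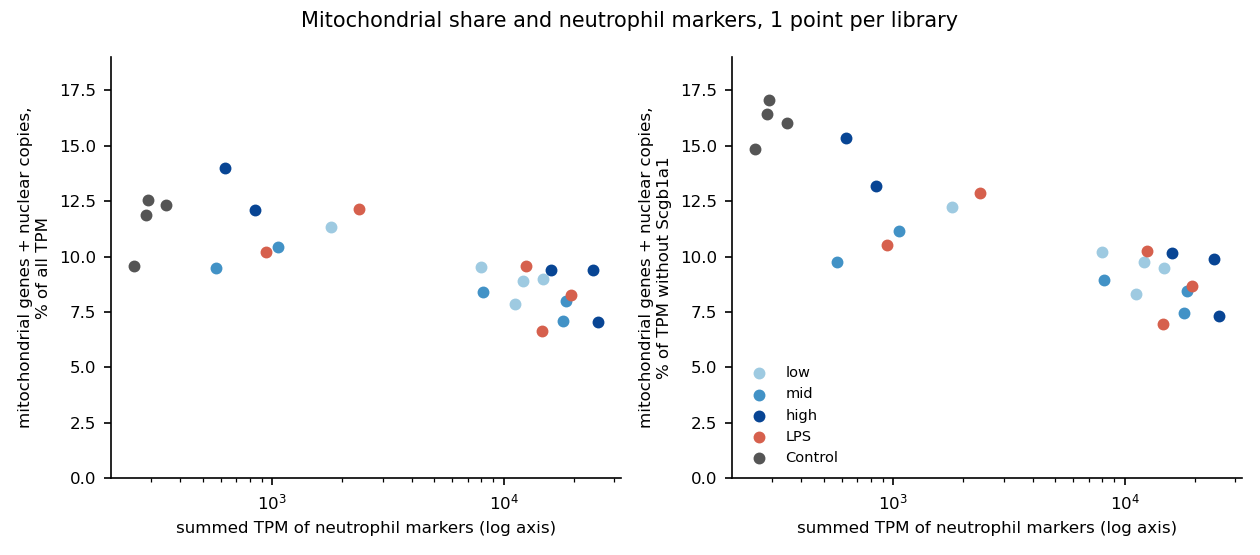
Members with their nuclear copies as a percentage of all TPM, and of TPM without Scgb1a1 (y axes), against the summed TPM of 14 neutrophil markers (x axis, log scale); each point is 1 library, coloured by group. Without Scgb1a1 the LPS libraries lie at 6.97 to 12.9%, below the control libraries at 14.8 to 17.1%, whose marker sums are 253 to 348.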

How the data were processed

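Total RNA from frozen lungs was extracted with TRIzol, depleted of ribosomal RNA and sequenced in pairs on a Illumina NovaSeq instrument, per the labels' protocols. The authors deposited 1 table of TPM for all genes and libraries; HISAT2, StringTie, RSEM, DESeq2 and GRCm39 are named, without versions or roles, per the submitters' processing notes. How reads matching several places were assigned is not given in the sources used here, and it sets the division between mitochondrial genes and nuclear copies.

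From the deposited TPM, log2(TPM + 1) was fitted for the 17823 genes that reached a TPM of 1 in 4 libraries or more, in limma 3.58.1 (R 4.3.3) with 1 mean per group over 24 libraries. Tests were two-sided, moderated with a trend and robust prior, and adjusted by Benjamini-Hochberg over all genes; an adjusted p of 0.05 or less was called. Fold changes are on the log2(TPM + 1) scale, which understates those of low genes. The fit was checked on simulated data. Copies were found with blastn 2.17.0 on GENCODE M21 transcripts (GRCm38), and no coordinates were converted. Every mt- gene could be named; of each nuclear list, the 3 members with the largest change among those passing qualified, of which a few are given, and of each marker list the most abundant one. Alternatives comprised scaling, filters, pseudocount, weights, a replicate block and leaving out each library; adding nuclear copies, and joining either that or the block with scaling, were chosen after seeing the data. Members and lists were chosen with earlier results of these data known.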

Additional observations from a re-analysis of the deposited data

Results flagged for a closer look

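Of 115 sets of values from 1 group that were examined for a library far from the rest, 8 had one, where chance gives about 1 in 20. Control replicate 1 was far below the other control libraries for 6 of them. It had 16645.5 TPM of mt-Atp8 (others 24536.8 to 26017.7), 3393.8 TPM of mt-Nd4 (others 5138.7 to 5189.5) and 1122 TPM of mt-Nd5 (others 2103.9 to 2195.7). It had 1578.1 TPM of mt-Nd6 (others 2963.3 to 3107.3) and 4975.4 TPM of mt-Cytb (others 6723.8 to 7078.1). Its mt-Nd6 amounted to 3.087% of the heavy-strand messenger RNAs (others 4.265 to 4.509%). These 6 sets share that library and are not independent. Scgb1a1 made up 35.45% of TPM in control replicate 1 (others 23.21 to 27.84%), and its part in these values was not tested. Control replicate 4 was high in mt-Rnr1, at 597.3 TPM (others 476.9 to 491.9), and high-dose replicate 4 was high in mt-Nd3, at 1782.9 TPM (others 497.2 to 846.6).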

How the results depend on the processing

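The 3 members lower in LPS than in control lungs became 1 at a log2 fold change of 1 or more. The count was 13 with median-of-ratios scaling, 14 with upper-quartile scaling, 12 with totals without Scgb1a1, 11 with sample weights and 15 with nuclear copies added and scaling. Of 17823 genes tested, 331 were lower in the main fit, 2446 with median-of-ratios and 2961 with upper-quartile scaling. Without Scgb1a1 1028 genes were lower, with sample weights 644, and with copies and scaling 2445 of 17818. Leaving out each library gave 3 to 7 members, without a background over all genes at hand. For high dose over LPS, 0 became 4 with scaling, 2 with upper-quartile scaling, 1 without Scgb1a1, 1 with a mean TPM filter and 6 with copies and scaling. Of all genes tested, 366 were higher for high dose in the main fit, 1008 with scaling, 940 with upper-quartile scaling and 418 without Scgb1a1. The mean TPM filter gave 363 of 16291, and copies with scaling 1007 of 17818. Leaving out each library gave 0 to 1 member, again without a background (mt-Nd4l, without high-dose 2, mid-dose 1, LPS 1 or control 1 or 2). For low dose 0 became 1 with scaling, where 289 genes were higher. The F-test of any dose gave 2, 1 and 5 members with scaling, upper-quartile scaling, and copies with scaling. Its background was 7.07% of genes in the first and last of these, and is not at hand for upper-quartile scaling. Replicate numbers were not treated as pairing the samples in the main fit (46 same-numbered pairs, r -0.447 to 0.645, median 0.0616, 20 over 0.1). These pairs were not compared with differently numbered ones, so whether the numbers pair the samples was not tested. The replicate block called 3 members lower in LPS than in control and 1 higher at the high dose, beside 305 and 372 of all genes. With scaling it called 13 lower and 3 higher, beside 2240 and 961 genes, and 2 for any dose. The summed members' log2 ratio of LPS to control, -0.23, was -0.88 with scaling, -0.96 with upper-quartile scaling, -0.63 without Scgb1a1 and -0.96 with copies and scaling; of low dose to LPS, -0.08, it was 0.23 with copies and scaling. Signs turned for LPS against control under the replicate block in mt-Atp8 (0.019), mt-Co3 (0.18) and mt-Nd5 (0.041), and without single libraries in mt-Atp8 (-0.19 to 0.058) and mt-Nd5 (-0.25 to 0.10). For high dose against LPS they turned in mt-Co2 (-0.03) with scaling (0.30), upper-quartile scaling (0.26), block and scaling (0.30), copies (0.25), copies and scaling (0.57) and without single libraries (-0.17 to 0.16), and in mt-Co3 with sample weights (-0.25) and without single libraries (-0.061 to 0.39). The cause was not tested. Depth is unknown, so no counting error can be given for low values such as those of mt-Co3.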
